A study of Mus musculus with 8 samples.

Results

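Of the 48607 rows in the table of assembled genes from whole mouse aortas, 1686 carried no gene name, and these unnamed loci are described here. They were taken as every row whose name field was empty, and each bore an identifier that StringTie, a program that assembles transcripts from mapped reads, gives to a locus it has built itself. The 8 libraries were poly(A)-selected RNA from the aortas of mice on a Western diet, all of them ApoE-/-, a strain that lacks apolipoprotein E and forms atherosclerotic plaques. The titles of 5 libraries read ApoE-/- and those of 3 read NPRC-/-ApoE-/-, mice that also carry a germline CRISPR frameshift in the first exon of Npr3, which encodes natriuretic peptide receptor C, on a C57BL/6 background. The ApoE-/- mice of this comparison were littermates of the NPRC-/-ApoE-/- mice. The study's methods give the age of the male ApoE-/- mice at purchase and the length of the diet, and the age at collection was not stated in the sources used here. The comparison asks how loss of this clearance and signalling receptor changes gene expression in the plaque-bearing aorta.

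The title and the genotype field went against each other in 4 of the 8 libraries. The libraries titled ApoE-/- 4 and 5 were entered as Nprc-/-Apoe-/-, and those titled NPRC-/-ApoE-/- 1 and 2 were entered as Apoe-/-. The design text of the series gives 5 and 3 mice and the study's methods give equal groups, so some NPRC-/-ApoE-/- mice of the methods were not analysed here. Both groupings keep the sizes 5 and 3, and every comparison below was made both by title and by genotype entry. The level of Npr3 could not settle the conflict, because a frameshift need not remove the transcript: in FPKM, which are fragments scaled to transcript length and library size, it stood at 0.62 to 1.69 under the title ApoE-/- and at 1.13 to 1.39 under NPRC-/-ApoE-/-. Library totals ranged from 62969165 to 86693276 counts. By title, 5 smooth muscle markers summed to 1289 to 1733 FPKM in ApoE-/- and 1667 to 2870 FPKM in NPRC-/-ApoE-/-, and 5 macrophage markers to 578 to 1772 FPKM and 278 to 925 FPKM. Of the 12 marker lists, that of neurons and Schwann cells was the only one whose sums did not overlap by title, at 2.31 to 8.25 FPKM and 0.53 to 0.96 FPKM. Fibroblast markers summed to 448 to 1267 FPKM and 248 to 660 FPKM, and those of B and plasma cells to 3.55 to 69.4 FPKM and 0.88 to 5.76 FPKM. The libraries titled NPRC-/-ApoE-/- 2 and 3 held the lowest macrophage sums, 357 and 278. Fewer cells of a type and less RNA per cell cannot be told apart in whole aortas.

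An assembler joins overlapping reads into transcript models and gives each model that matches no annotated gene an identifier without a name. Such loci can be long noncoding RNAs, RNA copied backwards from an active promoter, stretches of RNA beyond the annotated end of a gene, pieces of an unspliced precursor or repeat elements. A strand is normally assigned from the splice sites of a multi-exon model or from a strand-marking library, so a single-exon model with no strand information is listed without one.

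Several unnamed loci reached into the 250 bases before a RefSeq gene start, and these promoter sequences are shown because they place the locus against the gene it borders. Of the 1686 loci, 106 overlapped such a window on GRCm38.p6, and 84 of these had a strand: 56 matched the strand of a window they overlapped and 28 ran opposite to all of theirs. Capitals mark the bases inside the unnamed locus. Each sequence is written from 5′ to 3′ on the strand of the named gene and stops at its start site.
MSTRG.14843 before Efna5, minus strand, chr17:62881318-62881567: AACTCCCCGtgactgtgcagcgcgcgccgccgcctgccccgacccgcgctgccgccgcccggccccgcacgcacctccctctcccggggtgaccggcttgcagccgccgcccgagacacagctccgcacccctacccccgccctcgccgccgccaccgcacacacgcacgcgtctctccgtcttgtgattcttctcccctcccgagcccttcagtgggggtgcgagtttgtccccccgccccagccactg
MSTRG.25178 before Gm42131, minus strand, chr5:101449467-101449716: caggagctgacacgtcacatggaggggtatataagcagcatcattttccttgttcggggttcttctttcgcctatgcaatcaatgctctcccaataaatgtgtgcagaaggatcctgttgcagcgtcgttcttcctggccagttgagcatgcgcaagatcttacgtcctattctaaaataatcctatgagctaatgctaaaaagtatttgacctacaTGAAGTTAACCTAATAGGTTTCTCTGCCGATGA
MSTRG.22140 before Akirin2, plus strand, chr4:34550365-34550614: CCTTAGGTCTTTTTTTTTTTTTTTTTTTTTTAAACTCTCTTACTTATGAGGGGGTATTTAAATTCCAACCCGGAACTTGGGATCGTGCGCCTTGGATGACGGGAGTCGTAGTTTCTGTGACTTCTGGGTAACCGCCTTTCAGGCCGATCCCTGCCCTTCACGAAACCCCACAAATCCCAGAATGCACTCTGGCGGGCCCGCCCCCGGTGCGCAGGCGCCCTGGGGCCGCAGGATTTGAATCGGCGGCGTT
MSTRG.5672 before Dhx40, minus strand, chr11:86807661-86807910: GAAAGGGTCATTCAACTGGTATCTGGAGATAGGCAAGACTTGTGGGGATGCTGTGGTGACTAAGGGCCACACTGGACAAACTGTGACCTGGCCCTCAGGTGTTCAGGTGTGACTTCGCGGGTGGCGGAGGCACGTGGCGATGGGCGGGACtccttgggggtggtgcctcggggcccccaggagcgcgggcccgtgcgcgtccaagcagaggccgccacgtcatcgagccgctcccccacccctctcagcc

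The first of these windows shows a locus that only touches the far end of a promoter, with 9 bases shared, while MSTRG.22140 covered all 250 bases before Akirin2, a nuclear protein of innate immune signalling, and ran against it on the minus strand. MSTRG.5672 covered 150 bases before Dhx40, a DEAH-box helicase, and also ran against its gene. Both MSTRG.22140 and MSTRG.5672 also overlapped the RefSeq span of the gene they ran against. They lay 57 and 15 bp upstream of the GENCODE genes Akirin2 and Dhx40. These last-named loci were singled out after their values were seen. By title, MSTRG.22140 had 3.09, 1.61, 1.84, 1.34 and 3.13 FPKM in ApoE-/- and 1.53, 3.18 and 2.85 FPKM in NPRC-/-ApoE-/-, and MSTRG.5672 had 3.31, 7.0, 3.15, 4.87 and 2.46 FPKM and then 4.09, 2.90 and 2.94 FPKM, with overlapping groups for both. MSTRG.25178 had the strand of the RefSeq noncoding RNA Gm42131 and began 33 bases before its start. The 124 windows overlapped had a median GC content of 57.6% and a median of 13 CpG sites, against 52.4% and 6 over all 32851 windows. The GC box GGGCGG, searched on both strands, was in 58 of them (46.8%) and in 32.7% of all windows. The CCAAT motif was in 30.6% against 33.8%, and TATAAA in 10.5% against 12.4%. A match of letters is a description and not a bound site.

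The unnamed loci were short, mostly unspliced and often strandless. Their span had a median of 742 bp and ran from 200 to 148712 bp, against a median of 5340 bp for the 46921 named rows. Of the 1686 loci, 242 lay on the plus strand, 246 on the minus strand and 1198 (71.1%) had no strand, against 6.17% of named rows without a strand. The 488 loci with a strand had a median span of 4863 bp and the strandless loci a median of 488 bp. A single transcript model was listed for 1622 of the loci (96.2%), and for 62.7% of named rows.

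The length that each FPKM implies, obtained by dividing the count by the FPKM and a scale for each library, was compared with the span. The scale was set on strandless loci with a single transcript above 2 FPKM, taking their length as their span. A ratio near 1 is therefore partly built in for strandless loci, which were 887 of the 1234 below. Of the 347 with a strand, which did not set the scale, 268 had a ratio within 0.05 of 1. Among the 1234 unnamed loci with a mean of at least 0.3 FPKM, 1142 (92.5%) had an implied length within 0.05 of the span as a ratio, as a model without introns would have, against 40.6% of named rows. The ratio was under 0.9 in 72 loci, all of them with a strand. MSTRG.10141 alone lay far above 1, with an implied length of 7554 bp over a span of 5265 bp, so its span or its FPKM is uncertain.

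**Figure D1:**
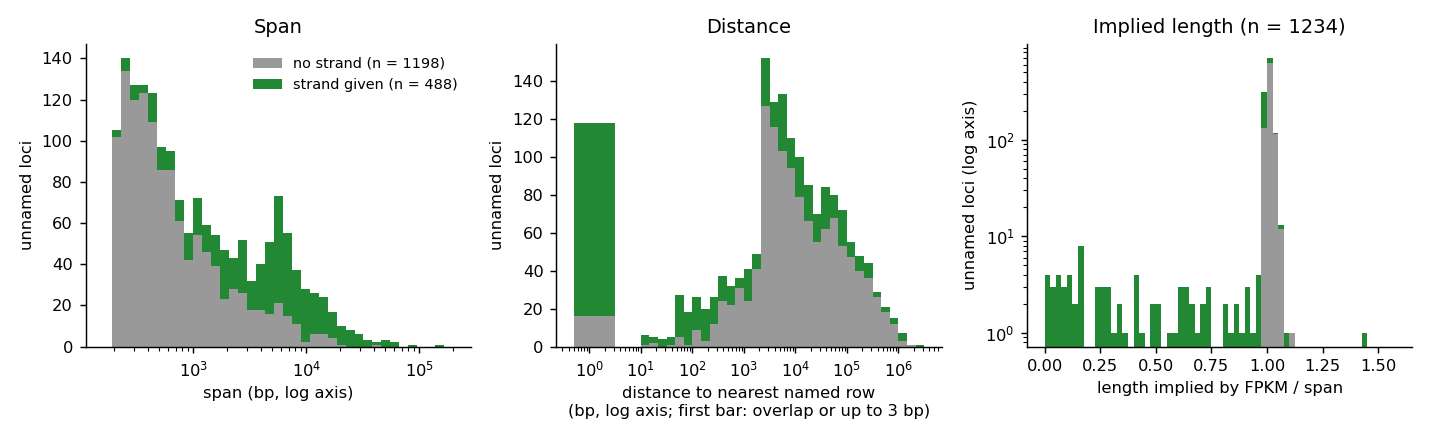
Span, distance to the nearest named row and ratio of implied length to span for the unnamed loci, as stacked counts of loci without a strand (grey, n = 1198) and with a strand (green, n = 488). The left and middle horizontal axes and the right vertical axis are logarithmic; strandless loci fill the short spans and the peak at a ratio of 1, while ratios under 0.9 belong to loci with a strand.

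The loci lay outside the GENCODE annotation, and most were within 10 kb of a named row. None of the 1686 overlapped any of the 55450 genes of GENCODE M21 on GRCm38, while 417 (24.7%) overlapped the span of a RefSeq gene on GRCm38.p6, of which 215 overlapped a long noncoding RNA, 154 a protein-coding gene and 41 a pseudogene. The distance to the nearest named row of the same table had a median of 6278 bp and a highest value of 2526403 bp. It was at most 1 kb for 360 loci (21.4%) and at most 10 kb for 974 (57.8%). A named row was overlapped by 116 loci, 83 of them on the opposite strand of that row, 18 on its strand and 15 without a strand.

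Upstream and downstream positions were nearly balanced over all distances, with 804 loci upstream and 882 downstream of the nearest GENCODE gene. Within 1 kb, 189 loci were upstream and 52 downstream. Protein-coding genes were the nearest gene for 843 loci, processed pseudogenes for 335 and lincRNAs for 213. By chromosome, the unnamed share of rows was lowest on chromosome 7 (2.28%), 6.92% on chromosome X (131 loci) and 20.2% on chromosome Y (26 of its rows, beside 103 named rows).

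Levels were low, and a large share of the loci were at 0 in some libraries. The mean FPKM over the 8 libraries had a median of 0.61 for unnamed loci and 0.519 for named rows. It was above 1 for 399 unnamed loci, above 5 for 22 and above 10 for 9. At least 1 FPKM was reached in all 8 libraries by 92 loci and in none by 657, and 33 loci had a count of 0 throughout. Of the 1029 unnamed loci that reached 1 FPKM in some library, 259 (25.2%) had a count of 0 in another, against 3.17% of the 22839 named rows that did so.

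The number of unnamed loci at 1 FPKM or more varied between libraries more than the number of named rows did. By title, ApoE-/- 1 to 5 had 476, 345, 351, 326 and 504 such loci, and NPRC-/-ApoE-/- 1 to 3 had 384, 597 and 552. The highest values were those of NPRC-/-ApoE-/- 2 and 3, and the groups overlapped by title and by genotype entry. Strandless loci carried most of the spread, from 171 to 392 per library, while loci with a strand ran from 155 to 205. Named rows at 1 FPKM or more ran from 17205 to 19287.

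As a share of all counts, unnamed loci took 0.526%, 0.613%, 0.574%, 0.640% and 0.486% in ApoE-/- 1 to 5 by title. In NPRC-/-ApoE-/- 1 to 3 they took 0.597%, 0.743% and 0.698%. The means were 0.568% ± 0.063 (SD, n = 5) and 0.679% ± 0.074 (SD, n = 3) by title, with overlapping groups, and 0.611% ± 0.081 and 0.608% ± 0.109 by genotype entry. The widest 95% Wilson interval of these shares spanned 0.00424 percentage points, and such intervals cover counting error only. NPRC-/-ApoE-/- 2 and 3 were the libraries with the highest shares, the most loci detected and the lowest macrophage marker sums, and the part of cell make-up in these differences was not tested.

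**Figure D2:**
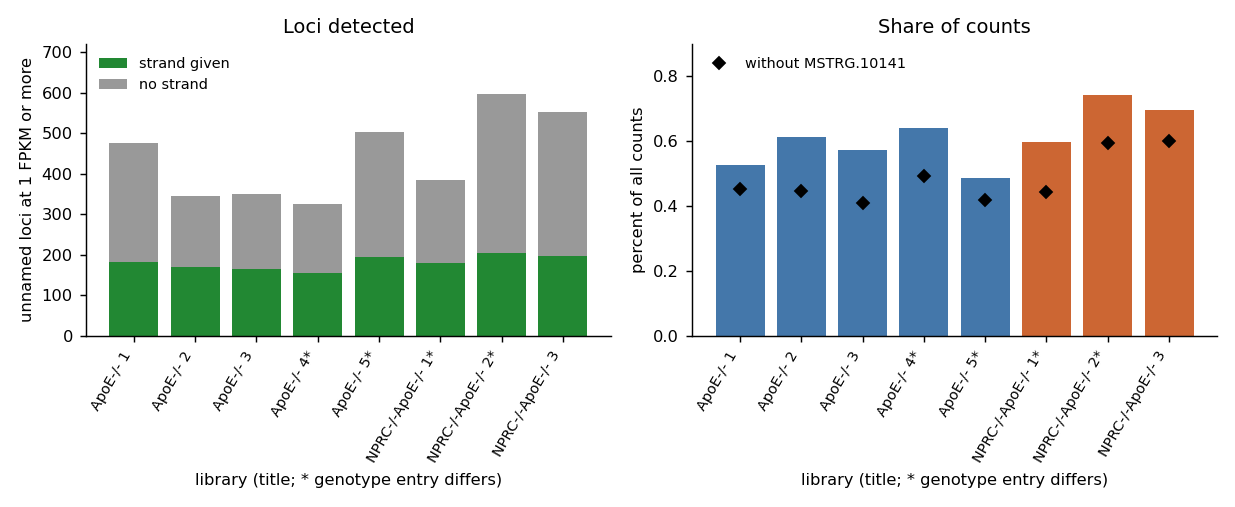
Left, number of unnamed loci at 1 FPKM or more in each library, stacked by strand; right, percent of all counts in unnamed loci, coloured by title (blue ApoE-/-, orange NPRC-/-ApoE-/-), with diamonds for the share without MSTRG.10141. NPRC-/-ApoE-/- 2 and 3 stand highest in both panels, with 597 and 552 loci, and strandless loci make up most of the difference.

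The 10 unnamed loci with the highest mean FPKM began with an opposite-strand pair on chromosome 14. MSTRG.10141 (chr14:32115302-32120566, minus strand) had 78.94, 182.82, 183.02, 165.37 and 73.77 FPKM in ApoE-/- 1 to 5 by title and 167.57, 158.88 and 105.82 FPKM in NPRC-/-ApoE-/- 1 to 3. Its partner MSTRG.10140 (chr14:32115280-32120566, plus strand) had 54.75, 54.76, 59.55, 106.28 and 31.32 FPKM and then 77.73, 128.06 and 122.46 FPKM. They lay 12100 and 12078 bp downstream of Oxnad1, a predicted oxidoreductase, whose own row had 1.09 to 2.90 FPKM. The plus strand took 23.0% to 53.6% of the summed FPKM of the pair, and was the larger part only in NPRC-/-ApoE-/- 3. By title MSTRG.10140 was higher in NPRC-/-ApoE-/- by 0.84 ± 0.38 (log2, SE) at an adjusted p of 0.371 in the edgeR quasi-likelihood test, and MSTRG.10141 differed by 0.07 ± 0.38.

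Among the other highly expressed loci, some were even across libraries and some were not. MSTRG.11081 (chr14:117976842-117979673, minus strand), 298 bp beyond the GENCODE end of Gpc6, a glypican of the cell surface, was the steadiest, at 18.95, 23.61, 19.74, 23.95 and 19.27 FPKM in ApoE-/- and 19.46, 18.69 and 23.44 FPKM in NPRC-/-ApoE-/- by title. MSTRG.10517 (chr14:54898180-54898874, minus strand) began 11 bp past the GENCODE end of Pabpn1, which encodes the nuclear poly(A)-binding protein, and ranged from 12.95 to 24.22 FPKM. Both MSTRG.11081 and MSTRG.10517 overlapped the RefSeq span of the gene each bordered and were listed on the strand opposite to it. MSTRG.7126 (chr12:59222712-59226427, minus strand), 2987 bp upstream of the F-box gene Fbxo33, ranged from 5.26 to 15.99 FPKM. Their groups overlapped by title and by genotype entry.

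MSTRG.14843 (chr17:62881559-62882858, no strand) began 242 bp upstream of Efna5, the gene of the Eph receptor ligand ephrin-A5, where its shared promoter bases are shown above. It had 19.64, 13.33, 11.78, 14.98 and 16.88 FPKM in ApoE-/- and 24.16, 21.57 and 18.28 FPKM in NPRC-/-ApoE-/- by title. Only ApoE-/- 1 reached into the range of the other group. The Efna5 row itself had 0.79 to 2.00 FPKM. The difference was 0.50 ± 0.16 (log2, SE), with an unadjusted p of 0.0119 and an adjusted p of 0.287 in edgeR, and by genotype entry it was -0.08 ± 0.24.

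MSTRG.25490 (chr5:114890360-114894640, minus strand) lay 2296 bp upstream of Oasl2, an interferon-induced gene. It had 10.76, 11.59, 12.19, 14.05 and 8.05 FPKM in ApoE-/- and 9.92, 16.74 and 20.71 FPKM in NPRC-/-ApoE-/- by title. Oasl2 had 1.93 to 4.00 FPKM in ApoE-/- and 1.16 to 1.35 FPKM in NPRC-/-ApoE-/-. The log2 difference was 0.50 ± 0.28 for the unnamed locus and -1.19 ± 0.25 for Oasl2, both by title, with edgeR adjusted p of 0.448 and 0.222.

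A locus on chromosome Y and another beside Rhbdd2 were above 1 FPKM in all 8 libraries but uneven between them. MSTRG.36146 (chrY:43919084-43919554, minus strand) had 52.70 FPKM in NPRC-/-ApoE-/- 3, 22.34 FPKM in ApoE-/- 1 and 6.62 to 11.34 FPKM in the other 6 libraries. MSTRG.25998 (chr5:135622644-135632131, plus strand), 487 bp from the rhomboid family gene Rhbdd2, had 1.41, 16.20, 4.90, 25.16 and 5.38 FPKM in ApoE-/- and 5.73, 26.39 and 11.80 FPKM in NPRC-/-ApoE-/- by title. It overlapped the row of Gm43123 on the minus strand, which had 8.35, 0.05, 14.19, 0.47 and 0.02 FPKM and then 0.06, 0.22 and 5.39 FPKM. The named row was above the unnamed locus only in ApoE-/- 1 and 3. MSTRG.1082 (chr1:88567491-88567810, no strand), overlapping the RefSeq noncoding RNA Gm41912, completed the 10 at 4.61 to 16.08 FPKM.

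The split of counts between strands was uneven in a way that single-row values hide. On opposite strands, 12 pairs of unnamed loci shared exactly the same start and end. Of the 96 pair-by-library values, 74 had counts on the strands that were equal within 1%, 19 had all counts on a single strand and 3 had another split. MSTRG.6935 and MSTRG.6936 (chr12:36375911-36378682) had counts equal within 1% in 7 libraries, such as 1296 against 1293 in ApoE-/- 5, and 0 against 621 in ApoE-/- 2. MSTRG.8434 and MSTRG.8433 (chr13:21762527-21768128) had all counts on the minus strand in ApoE-/- 2 and 4 and equal shares elsewhere. The files do not say whether equal counts are the same fragments entered on both strands or divided between them, so a count of 0 in such a row does not show that the region lacked RNA. All 24 members of these pairs were tested and none was called below.

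**Figure D3:**
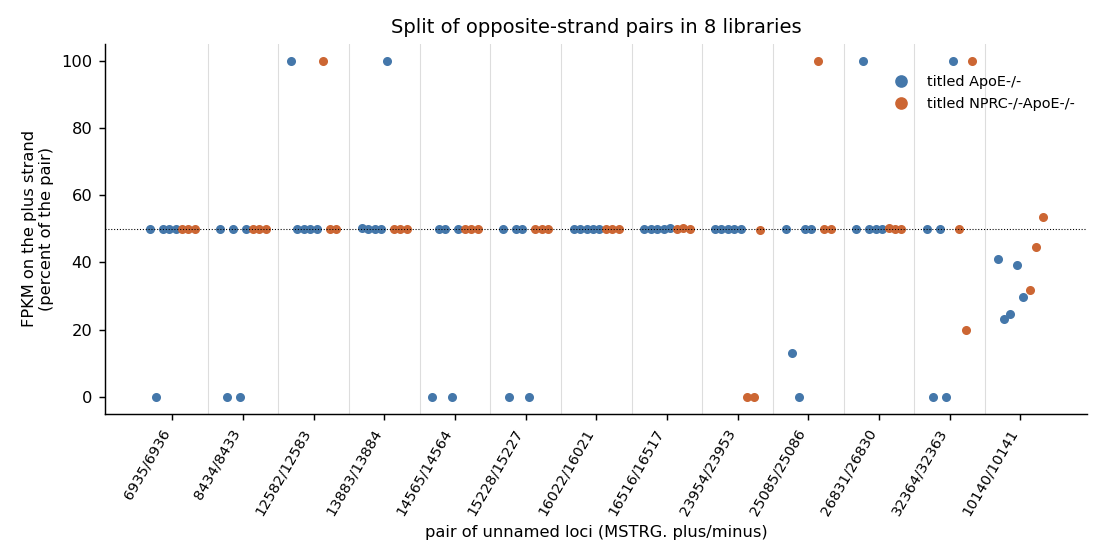
Share of a pair's summed FPKM that was listed on the plus strand, in percent, for the 12 opposite-strand pairs with identical span and for MSTRG.10140 with MSTRG.10141, with a point for each of the 8 libraries coloured by title. Most points of the identical pairs sit on 50% and nearly all others on 0% or 100%, while MSTRG.10140 with MSTRG.10141 spreads from 23.0% to 53.6%.

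Overlap with a row on the other strand was common: 191 of the 488 loci with a strand had it. Among tested loci with a strand, the median coefficient of variation over the 8 libraries was 0.497 for the 103 with such an overlap and 0.367 for the 122 without.

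Differences between genotypes were tested on the 20506 loci that reached 1 FPKM in 3 or more libraries, of which 576 were unnamed (34.2% of the unnamed, against 42.5% of the named). A locus was called when the fold change was above 2 or below 0.5 with an unadjusted p under 0.05, the study's criterion, in the edgeR quasi-likelihood test. By title, 39 of the 576 unnamed loci were called (6.77%), beside 3.47% of all tested loci. Of these, 26 were higher in NPRC-/-ApoE-/- (4.51%, beside 1.08% of all tested) and 13 lower (2.26%, beside 2.39%). By genotype entry 9 were called (1.56%, beside 0.463%), 5 higher (0.868%, beside 0.2%) and 4 lower (0.694%, beside 0.263%).

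The filter on low values bears on these counts. By title, 29 of the 576 loci reached 1 FPKM only in ApoE-/- libraries and held 12 of the 13 lower calls, and 6 reached it only in NPRC-/-ApoE-/- libraries and held 4 of the 26 higher calls. Of the 541 loci that reached it in both groups, 22 were called higher and 1 lower. By genotype entry all 4 lower calls were among 21 loci that reached 1 FPKM only in ApoE-/- libraries.

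With all 8 libraries, no locus, named or not, passed an adjusted p under 0.05 in edgeR under either grouping. An unadjusted p under 0.05 in edgeR was reached by 71 of the 576 unnamed loci by title, beside 2797 of all 20506 tested. That is a smaller share of the unnamed than of all tested loci, unlike the share called with the fold criterion. By genotype entry it was reached by 15, beside 269 of all tested, a larger share of the unnamed. DESeq2 gave 13 unnamed loci an adjusted p under 0.05 by title, beside 650 of all tested, again a smaller share. By genotype entry DESeq2 gave 0, beside 9 of all tested. The count called by title rested on the libraries used, and so did the share of all tested loci. It was 75 without NPRC-/-ApoE-/- 1 (13.0%, beside 7.97% of all tested). It was 26 without NPRC-/-ApoE-/- 2 (4.51%, beside 1.97%) and 27 without NPRC-/-ApoE-/- 3 (4.69%, beside 1.97%). With NPRC-/-ApoE-/- 1 as the lone library against the ApoE-/- libraries, the median log2 fold change of unnamed loci was -0.10, against -0.01 over all. By genotype entry the count of 9 called became 24 without ApoE-/- 4 (4.17%, beside 1.17% of all tested). It was 18 without ApoE-/- 5 (beside 0.922%) and 19 without NPRC-/-ApoE-/- 2 (3.30%, beside 0.746%). It was 5 (0.868%) without ApoE-/- 3, NPRC-/-ApoE-/- 1 or NPRC-/-ApoE-/- 3, beside 0.410% to 0.429%, and 6 without ApoE-/- 2 (1.04%, beside 0.415%).

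As a group the tested unnamed loci lay to the higher side in NPRC-/-ApoE-/- by title. Their median log2 fold change was 0.29, against -0.01 over all tested loci, and 399 of 576 (69.3%) were above 0, against 49.1% of all. By genotype entry the median was 0.09, and 61.8% were above 0 against 49.0% of all. Without the filter, 1653 loci had a median of 0.25 by title, against -0.04 over all 44689. The direction was not that of every library: with NPRC-/-ApoE-/- 1 as the lone library of its title the median was -0.10 and 44.6% were above 0, without NPRC-/-ApoE-/- 1 the median was 0.44 and without NPRC-/-ApoE-/- 3 it was 0.18. By genotype entry the median was -0.02 without NPRC-/-ApoE-/- 3. The shift was seen in strandless loci (n = 351, median 0.32) and in those with a strand (n = 225, median 0.25). Among named loci the 1464 without a strand had a median of 0.10 and the 18466 with a strand one of -0.02. Of the 576 loci, 142 had their highest FPKM in NPRC-/-ApoE-/- 2 and 138 in NPRC-/-ApoE-/- 3, against 39 to 62 in each of the other 6 libraries.

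**Figure D4:**
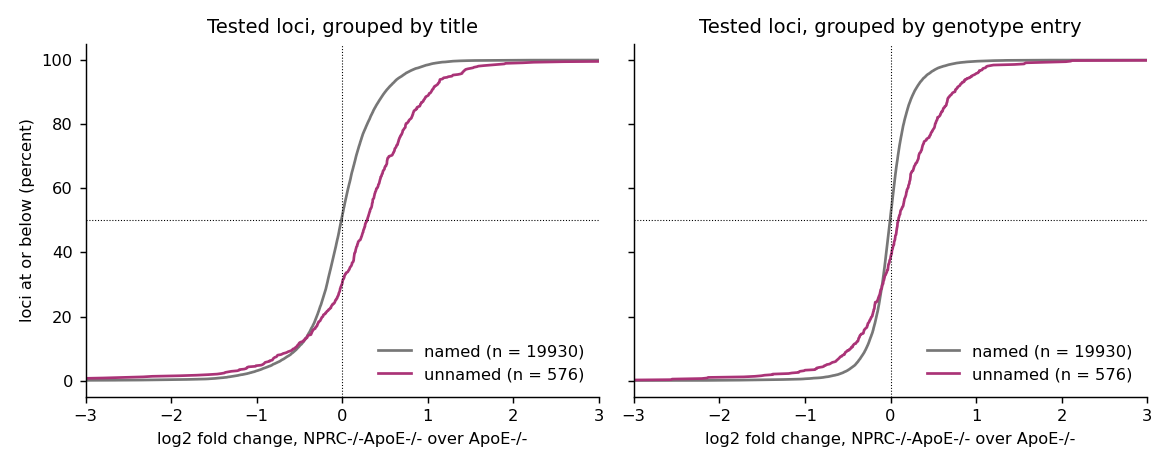
Cumulative percent of tested loci at or below each log2 fold change (NPRC-/-ApoE-/- over ApoE-/-), for 576 unnamed (purple) and 19930 named loci (grey), by title on the left and by genotype entry on the right. The unnamed curve crosses 50% at 0.29 by title and at 0.09 by genotype entry, and is less steep than the named curve in both panels.

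At matched levels the share called by title was also above that of named loci, other than at the lowest levels. It was 7.28% of 302 unnamed and 3.28% of 6883 named loci with a mean of 1 to 2 FPKM, and 7.25% of 69 and 2.81% of 7508 at 2 to 5 FPKM. Under 1 FPKM it was 5.46% of 183 unnamed and 7.20% of 1319 named loci. The spread between libraries also differed, with a median coefficient of variation of 0.472 for tested unnamed and 0.233 for tested named loci. Groups that did not overlap, a criterion of its own, were found for 26 unnamed loci by title (4.51%, beside 7.25% of all tested) and for 6 by genotype entry (1.04%, beside 0.97%).

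The loci with the largest differences by title and no overlap between titled groups had low levels, mostly 1 to 2 FPKM on average. MSTRG.12011 (chr15:81832148-81839804, minus strand), 1900 bp from a strandless assembled row that carries the name of Tef, a clock-output transcription factor, had 0.88, 0.55, 0.62, 0.57 and 1.01 FPKM in ApoE-/- and 1.05, 2.00 and 1.94 FPKM in NPRC-/-ApoE-/-. That row, which lies beyond the GENCODE end of Tef and is no measure of the whole gene, stood at 0.78, 0.29, 0.43, 0.33 and 0.87 FPKM and then 0.61, 1.79 and 2.02 FPKM (Pearson's r = 0.97 over the 8 libraries, which share their depth and tissue make-up). The difference of MSTRG.12011 was 1.24 ± 0.27 (log2, SE; adjusted p of 0.224 in edgeR and 0.0044 in DESeq2), and 0.25 ± 0.50 by genotype entry.

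MSTRG.29702 (chr7:78938865-78954103, minus strand) was a spliced locus, with 3472 bp of implied length over 15239 bp, overlapping the RefSeq noncoding RNA Gm31213. It had 0.85, 0.74, 0.83, 0.87 and 1.25 FPKM in ApoE-/- and 1.33, 2.23 and 1.97 FPKM in NPRC-/-ApoE-/- by title, a difference of 1.05 ± 0.23 (log2, SE; adjusted p of 0.224 in edgeR and 0.00431 in DESeq2). MSTRG.25178 (chr5:101443569-101449499, minus strand), whose first bases are shown above, was also spliced, with 1378 bp over 5931 bp. It had 0.48, 0.87, 0.80, 0.76 and 1.04 FPKM and then 1.47, 1.30 and 1.95 FPKM, a difference of 1.01 ± 0.28.

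A pair of strandless loci completed the higher side. MSTRG.25679 (chr5:122447764-122448377), 2852 bp beyond Anapc7, a subunit of the anaphase-promoting complex, had 0.49 to 1.45 FPKM in ApoE-/- and 1.51 to 2.51 FPKM in NPRC-/-ApoE-/- by title. MSTRG.6777 (chr12:23024885-23025624) had 0.42 to 1.24 FPKM and 1.35 to 2.37 FPKM. Anapc7 itself stayed within 4.06 to 4.95 FPKM in all 8 libraries. By genotype entry the groups of all 5 loci on the higher side overlapped.

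On the lower side, 3 of 5 loci bordered a named row whose fold change by title was also negative. Over the 317 pairs described below, signs matched in 53.3%. The rows nearest to the other loci, Gfm1 and Gm14418, differed by 0.12 ± 0.17 and 0.63 ± 0.23 (log2, SE). Of the 5 loci, all but MSTRG.19955 reached 1 FPKM only in libraries titled ApoE-/-, and so passed the filter through the group where they were higher. MSTRG.13252 (chr16:55805447-55808590, plus strand) ended 64 bp from the row of Nfkbiz, which encodes the NF-kB regulator IkB-zeta. It had 0.87, 1.46, 2.36, 1.08 and 0.85 FPKM in ApoE-/- and 0.60, 0.41 and 0.81 FPKM in NPRC-/-ApoE-/- by title, and Nfkbiz had 5.25, 9.32, 9.02, 6.53 and 3.87 FPKM and then 3.9, 3.31 and 3.25 FPKM. The log2 differences were -1.11 ± 0.43 and -0.96 ± 0.31 (SE). No p is given for MSTRG.13252, and the edgeR adjusted p of Nfkbiz was 0.29.

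MSTRG.9532 (chr13:100585309-100591552, no strand) lay 476 bp from a strandless assembled row that carries the name of Marveld2, the gene of the tight junction protein tricellulin, and 4405 bp from the GENCODE gene itself. It had 1.14, 1.33, 1.68, 1.96 and 1.16 FPKM in ApoE-/- and 0.91, 0.50 and 0.24 FPKM in NPRC-/-ApoE-/- by title, with a log2 difference of -1.42 ± 0.41, and the row named Marveld2, which does not reach the GENCODE gene, differed by -1.33 ± 0.41. MSTRG.28259 (chr6:131254200-131254735, minus strand) lay 151 bp from the GENCODE pseudogene Gm5582. It overlapped the RefSeq span of that pseudogene, so the unnamed and named rows may not be separate genes. MSTRG.28259 had 0.92, 1.94, 1.40, 0.93 and 4.58 FPKM and then 0.39, 0.47 and 0.62 FPKM. Its log2 difference was -1.90 ± 0.58 by title and 0.95 ± 0.71 by genotype entry, so the sign turned with the label, and Gm5582 differed by -1.89 ± 0.76 by title.

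MSTRG.20642 (chr3:67420763-67421439, no strand), 8657 bp upstream of the mitochondrial elongation factor gene Gfm1, had 0.86 to 2.17 FPKM in ApoE-/- and 0.28 to 0.63 FPKM in NPRC-/-ApoE-/- by title. The same locus overlapped the RefSeq gene Gm52606, listed as protein-coding. MSTRG.19955 (chr2:177251236-177256802, plus strand) lay within the span of the Gm14418 row on the other strand and had 2.89 to 6.84 FPKM and 1.75 to 2.71 FPKM. Its log2 difference of -0.95 ± 0.29 was under the fold needed for a call. The 5 loci on the lower side overlapped between groups by genotype entry.

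**Figure D5:**
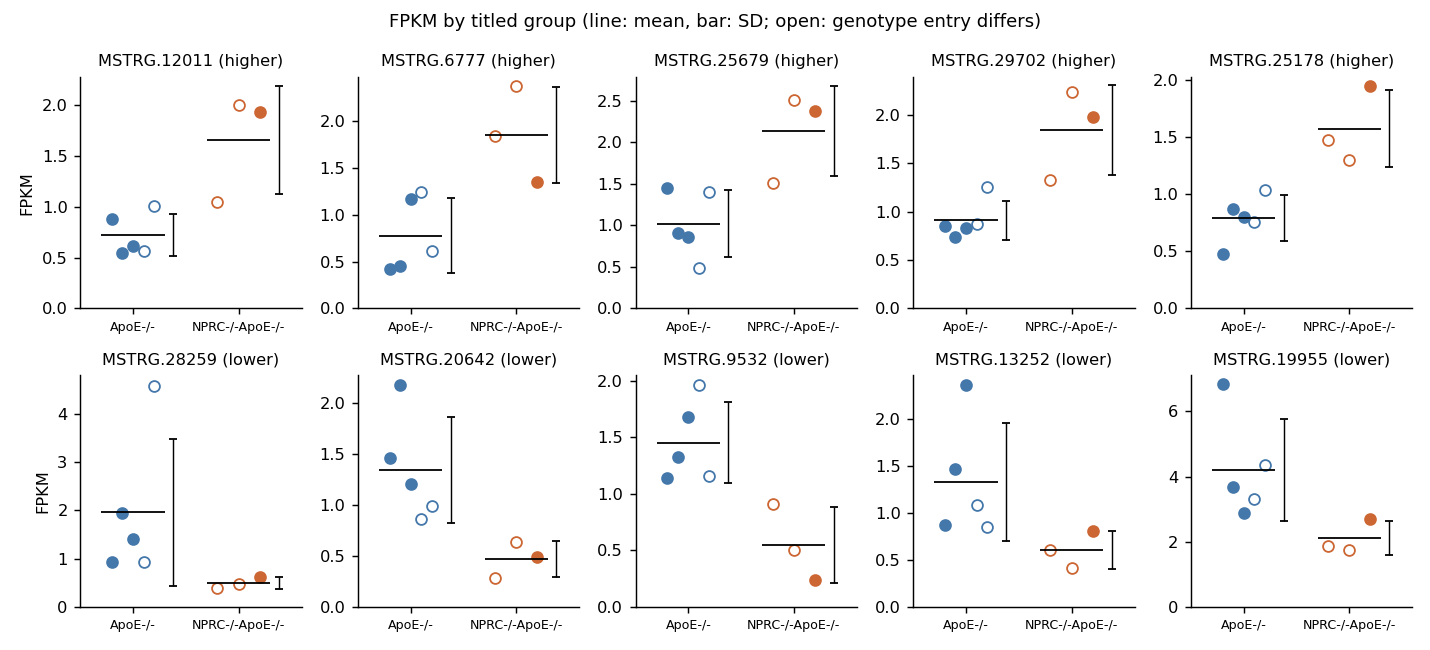
FPKM of the 5 unnamed loci with the largest higher (top row) and lower (bottom row) differences by title among those with no overlap between titled groups, with a point per library, the mean as a line and the SD as a bar. Open points are libraries whose genotype entry differs from the title; every NPRC-/-ApoE-/- point lies outside the ApoE-/- range because the loci were chosen that way.

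Grouped by genotype entry, a single unnamed locus met the same conditions. MSTRG.36137 (chrY:37764476-37766633, no strand) had 1.01, 1.67, 1.12, 1.20 and 1.81 FPKM in the libraries entered as ApoE-/- and 0.51, 0.89 and 0.78 FPKM in those entered as NPRC-/-ApoE-/-. It reached 1 FPKM only in libraries entered as ApoE-/-, the group where it was higher, so no test is given. The log2 difference was -0.88 ± 0.28 (SE), and 0.29 ± 0.37 by title.

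Presence and absence split by title in a set of loci that was chosen after the counts were seen. A count of 0 in all 5 libraries titled ApoE-/- with at least 10 counts in each of the 3 titled NPRC-/-ApoE-/- was found for 10 of the 1686 unnamed loci and for 13 of all 48607 rows (0.0267%). The reverse held for no unnamed locus and for 10 rows in all (0.0206%). By genotype entry neither pattern held for an unnamed locus, and each held for 0.00206% of all rows.

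MSTRG.24587 (chr5:42281233-42281549, no strand), 64435 bp from the nearest named row, was the only one of the 10 that was tested. Its counts were 0 in all 5 libraries titled ApoE-/- and 45, 71 and 37 in NPRC-/-ApoE-/- 1 to 3, or 1.36, 2.88 and 1.10 FPKM. Against a floor of 3 counts per library the level was at least 18.0-fold higher. It reached 1 FPKM only in the group where it was chosen to be high, so no test is given.

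In this set, 8 other loci were also strandless and short, from 223 to 494 bp, with 10 to 87 counts in the NPRC-/-ApoE-/- libraries. MSTRG.35756 (chrX:114941519-114941998) had 79, 87 and 48 counts, and MSTRG.32600 (chr8:125632215-125632708) had 55, 48 and 41. MSTRG.19691 (chr2:164874612-164879277, minus strand) differed from them, with 852, 882 and 204 counts over 4666 bp. It overlapped the row of Pcif1, a cap-dependent mRNA methyltransferase gene that had 5.91 to 7.10 FPKM in every library. It also overlapped the RefSeq gene 4930445K14Rik. How counts were divided between overlapping rows is not stated, so the counts of 0 of MSTRG.19691 do not show that the region lacked RNA.

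MSTRG.13066 (chr16:35690781-35691314, no strand), also singled out after its values were seen, was chosen for the lowest p of the unnamed loci by title, and it passed the filter on low values only through the NPRC-/-ApoE-/- libraries. It had 0.42, 0.48, 0.61, 0.39 and 0.43 FPKM in ApoE-/- and 1.70, 1.53 and 1.46 FPKM in NPRC-/-ApoE-/-, and the groups did not overlap. The log2 difference was 1.74 ± 0.25 (SE), given with no test, and -0.25 ± 0.65 by genotype entry. It lay 2748 bp from Dirc2, a lysosomal transporter gene.

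The unnamed locus nearest to Npr3 was 1030741 bp away. MSTRG.11303 (chr15:12938033-12938291, no strand), 2742 bp from Drosha, the microRNA-processing ribonuclease gene, had counts of 2, 6, 4, 5 and 2 in ApoE-/- and 6, 15 and 23 in NPRC-/-ApoE-/- by title, too few to be tested. The longest tested unnamed locus, MSTRG.32681 (chr9:6380212-6429223, minus strand), spanned 49012 bp with an implied length of 48855 bp. It ran antisense beyond the GENCODE end of Pdgfd, a platelet-derived growth factor gene, and overlapped the longer RefSeq span of that gene. Its level was 1.53, 0.89, 1.23, 1.05 and 2.11 FPKM in ApoE-/- and 1.35, 2.04 and 2.31 FPKM in NPRC-/-ApoE-/- by title, and Pdgfd had 0.95 to 1.54 FPKM.

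The likeness of an unnamed locus to its neighbour was weak over the whole set. For the 317 tested loci whose nearest named row was tested too, the correlation of log2 CPM (counts scaled to library size) over the 8 libraries had a median of 0.25. It was 0.38 for the 43 overlapping pairs, 0.30 for the 195 pairs within 5 kb that did not overlap, 0.10 for 59 at 5 to 50 kb and -0.18 for 20 beyond 50 kb. The signs of the log2 fold changes by title matched in 169 of the 317 pairs (53.3%).

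Some loci were high in a single library, and those given here were singled out for that. MSTRG.23858 (chr4:149432676-149439437, plus strand), 5927 bp upstream of the ubiquitin ligase gene Ube4b, had 42.63 FPKM in NPRC-/-ApoE-/- 3 and 0.26 to 1.82 FPKM in the other 7 libraries. MSTRG.36141 (chrY:40030552-40031063, plus strand) had 27.70 FPKM in NPRC-/-ApoE-/- 1 and 0.24 to 1.31 FPKM elsewhere. Both were among the 39 called by title, with groups that overlapped.

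A value of 0 FPKM on a strand could stand beside a value above 0 on the other. MSTRG.31373 (chr8:33713743-33719726, minus strand) had 0 FPKM in NPRC-/-ApoE-/- 3 and 5.77 to 15.38 FPKM elsewhere. MSTRG.31374, which starts at the same base on the plus strand, had 7.91 FPKM in NPRC-/-ApoE-/- 3 and 0.09 to 8.12 FPKM elsewhere. MSTRG.28921 (chr7:28252511-28261692, plus strand) was highest in ApoE-/- 4 at 13.76 FPKM, with 0 to 3.74 FPKM elsewhere. Its 0 was in NPRC-/-ApoE-/- 2, where its partner MSTRG.28922 had 3.65 FPKM. That partner ranged from 1.61 to 12.16 FPKM. The summed FPKM of each pair was above 0 in all 8 libraries, at 5.86 to 17.98 and 1.99 to 19.01.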

How the data were processed

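Poly(A) RNA of 8 whole mouse aortas had been sequenced in paired-end runs after a strand-marking (dUTP) preparation. The authors used HISAT2 for mapping and StringTie for assembly. The submitters' processing notes also name cutadapt 1.9, FastQC and GRCm38. Whether mapping and counting used strand is not given in the sources used here. The authors deposited raw counts and FPKM for every assembled locus. The FPKM, as deposited by the authors, were used as given. The members and lists were chosen with earlier results of these data known.

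Rows with an empty name were taken, and groups came from the titles, with the genotype field as the other grouping. Loci reaching 1 FPKM in 3 or more libraries entered edgeR 4.0.16 (TMM, quasi-likelihood, Benjamini-Hochberg over 20506 loci) in R 4.3.3, after a check on simulated counts. DESeq2 1.42.0 and limma 3.58.1 on log2(FPKM + 1) and log2(FPKM + 0.1) were alternatives. The design text counts mice as it counts libraries, but no label ties a library to an animal, so p-values measure the spread between these libraries. No libraries were duplicates within sampling noise. Implied lengths were scaled per library on strandless single-transcript loci above 2 FPKM.

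Loci named were the 10 with the highest mean FPKM; by title the 5 largest differences each way, and by genotype entry the 2 largest each way (1 qualified), among those with a mean of at least 1 FPKM, no overlap between groups and adjusted p under 0.05, or else unadjusted p under 0.05; the locus nearest Npr3; and the longest tested. Others are said to be singled out. Marker sums used 12 cell type lists. GENCODE M21 and RefSeq GRCm38.p6 gave genes and promoter sequences. Same-numbered libraries correlated at -0.31, -0.11 and 0.01 in their deviations from titled group means, so the numbers do not pair them.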

Additional observations from a re-analysis of the deposited data

Results flagged for a closer look

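Values were compared within groups of 5 libraries by the ratio of the gap beside the most extreme library to the whole range, and 5 of 50 such groups passed the critical value of 0.71, where chance gives about 1 in 20. MSTRG.36146, the chromosome Y locus, had 22.34 FPKM in ApoE-/- 1, the highest of the libraries titled ApoE-/-, with a gap of 0.839 of the range. MSTRG.28259 had 4.58 FPKM in ApoE-/- 5, the highest of that group, and the libraries titled NPRC-/-ApoE-/- had 0.39 to 0.62 FPKM. MSTRG.29702 had 1.25 FPKM in ApoE-/- 5, the highest of the libraries titled ApoE-/- and below every NPRC-/-ApoE-/- value. Among the libraries entered as ApoE-/-, MSTRG.10141 was lowest in ApoE-/- 1 at 78.94 FPKM, and MSTRG.11081 was highest in ApoE-/- 2 at 23.61 FPKM.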

How the results depend on the processing

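By title, the count of 39 called unnamed loci stayed within 1.5 times under DESeq2 (42), limma on log2(FPKM + 0.1), median-ratio scaling, scaling from named loci alone, both fits of libraries 1 to 3 and summed opposite-strand pairs (40 of 564). It was 164 without a filter on low values (9.92%, beside 5.12% of all tested) and 7 with limma on log2(FPKM + 1) (1.22%, beside 0.853%). It was 2 at a mean of at least 5 FPKM (9.09%, beside 2.68%) and 9 by genotype entry (1.56%, beside 0.463%). With a library left out it was 26 to 75 (4.51% to 13.0%, beside 1.97% to 7.97%). The sums of opposite-strand pairs and the next 2 alternatives were chosen after the data were seen; the latter gave 81 for the 4 libraries whose labels agree and 30 for NPRC-/-ApoE-/- 1 alone. In these fits the lone NPRC-/-ApoE-/- library is assumed to vary like the ApoE-/- libraries. Calls over all tested loci also rose in the former fit and fell in the latter. Neither count is therefore a result about unnamed loci alone. The median log2 fold change of unnamed loci was 0.43 in the 4 libraries whose labels agree, against -0.04 over all tested. For NPRC-/-ApoE-/- 1 alone it was -0.10, against -0.01. By genotype entry the limma, scaling and 5 FPKM alternatives were also added afterwards. There the count of 9 was 50 without a filter (3.02%, beside 1.76% of all tested) and 4 with limma on log2(FPKM + 1) (0.694%, beside 0.112%). It was 1 at a mean of at least 5 FPKM (4.55%, beside 0.165%) and 5 to 24 with a library left out (0.868% to 4.17%, beside 0.410% to 1.17%). By title, the replicate block gave 33 calls (5.73%, beside 3.9% of all tested). The same 6 libraries without it, which share only a number, gave 44 (7.64%, beside 4.47%).

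The median distance to a named row was 15204 bp on the same strand. Without MSTRG.10141 the mean share of counts was 0.444% and 0.547% by title, and 0.470% for libraries entered as ApoE-/-. At 0.1 FPKM the mean number of loci detected was 1297 and 1333 by title, and 1304 and 1321 by genotype entry.

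Of 450 values of named loci under alternatives, 31 changed sign and 6 passed the adjusted threshold only there. These were DESeq2 fits by title. Adjusted p was 0.0044 for MSTRG.12011, 0.00431 for MSTRG.29702 and 0.0335 for MSTRG.25178, against 0.224 to 0.255 in edgeR. The others were MSTRG.28259, MSTRG.20642 and MSTRG.9532, which reached 1 FPKM only in libraries titled ApoE-/-, so their p is not given. All 6 had been chosen for a low p by title in these same data, so these values are no further evidence. By genotype entry the changes of sign were in MSTRG.10141 (-0.38), MSTRG.11081 (0.19), MSTRG.14843 (-0.0755), MSTRG.7126 (-0.0216), MSTRG.6777 (-0.18), MSTRG.28259 (0.95), MSTRG.9532 (0.0287), MSTRG.19955 (0.0515) and MSTRG.36137 (-0.88). With a library left out, log2 differences ran from -0.10 to 0.24 for MSTRG.10141, -0.15 to 0.084 for MSTRG.11081, -0.3287 to 1.6031 for MSTRG.36146, -0.22 to 1.12 for MSTRG.25998 and -0.0222 to 0.53 for MSTRG.36137. In the 4 libraries whose labels agree, MSTRG.10141 was -0.42, MSTRG.11081 0.26 and MSTRG.36137 -0.62. Against NPRC-/-ApoE-/- 1 alone, MSTRG.10517 was -0.34, MSTRG.25490 -0.21, MSTRG.25998 -0.92 and MSTRG.32681 -0.0067. MSTRG.11081 was 0.0795 at a mean of at least 5 FPKM, and 0.0039 with and 0.0097 without the replicate block in libraries 1 to 3. MSTRG.10141 was -0.0443 without that block and MSTRG.36137 -0.0333 with it. The cause of these changes was not tested.

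Most unnamed loci had under 1 FPKM, and at that depth a missed difference is not shown to be absent.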
